A study of Rattus norvegicus with 12 samples.

Results

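Extracellular matrix genes were examined in the renal cortex of obese and lean rats with and without an inhibitor of the sodium-glucose cotransporter SGLT2. The members were all rows of the deposited table whose symbol is that of a collagen, laminin, nidogen, fibrillin, fibulin, elastin, fibronectin, lysyl oxidase, matrix metalloproteinase, ADAMTS protease or TIMP inhibitor, 76 of 13151 genes. They were sorted by role into 10 fibrillar collagens, 14 basement membrane genes, 11 other collagens, 6 genes of elastic fibres and fibronectin, 5 lysyl oxidases, 14 matrix metalloproteinases, 12 ADAMTS proteases and 4 TIMP inhibitors. Zucker fatty (ZF) rats lack a working leptin receptor and become obese, and Zucker lean (ZL) rats were their lean controls. ZF-SGLT2i rats were ZF rats given canagliflozin, mixed into food at 10 mg/kg/day, from week 24 of life for the last 8 weeks, with food matched to that of untreated ZF rats. All rats were male and 32 weeks old, with 4 rats in each group, numbered 1 to 4 in ZL, 2 to 5 in ZF, and 2, 3, 4 and 6 in ZF-SGLT2i. The study describes ZL rats only in an experiment with earlier kidney biopsies and ZF-SGLT2i rats only in treatment experiments, for which no biopsy is described. It uses names from both kinds of experiment for the sequenced untreated ZF rats, so their origin is not known here. In ZF-SGLT2i against ZL, experiment and earlier biopsy cannot be told apart from genotype and treatment. If the ZF rats came from treatment experiments, the same holds for genotype in ZF against ZL, and if they came from the biopsy experiment, for treatment in ZF-SGLT2i against ZF.

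Fibrillar collagens form the cable-like fibres of the interstitium and are made mainly by fibroblasts and related mesenchymal cells. Basement membranes are thin sheets under tubular, glomerular and vascular cells, built of a type IV collagen network and a laminin network that nidogens link. In the mature glomerular basement membrane, podocytes supply the type IV collagen chains encoded by Col4a3, Col4a4 and Col4a5. Lama5 and Lamb2 encode laminin chains of that membrane, not made by podocytes alone. Col4a1 and Col4a2 encode the more widespread network. Lysyl oxidases cross-link collagen and elastin, matrix metalloproteinases and ADAMTS proteases cut matrix proteins, and TIMPs inhibit these proteases.

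Values are CPM, read counts per gene relative to a library's total and so corrected for depth but not for gene length, with the authors' scaling between libraries. Reads on genes per rat ranged from 8886901 to 12210257 in ZL, from 8824980 to 11191377 in ZF and from 8914666 to 10293049 in ZF-SGLT2i. The tissue was whole cortex, so fewer cells of a type and less RNA per cell cannot be told apart. The label was checked against cell type markers. Proximal tubule markers were abundant, with Lrp2, an endocytic receptor of these cells, at 10700 ± 422, 7840 ± 1230 and 6440 ± 1020 CPM in ZL, ZF and ZF-SGLT2i (SD, n = 4 each). The inner medullary urea transporter Slc14a2 had a mean of 0.310, 0.260 and 1.51 CPM, with 0.286, 1.51, 0.906 and 3.34 CPM in the treated rats, and the urothelial gene Upk3a one of 0.267, 0.161 and 0.218 CPM. Of the 76 matrix genes, 68 reached 1 CPM in 4 rats or more and entered the test, and 65 of these had a mean of at least 1 CPM in each group.

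Of the 68 tested matrix genes, 49 had a log2 fold change above 0 in obese against lean rats, and 57 had one below 0 in treated against untreated obese rats. Among all 11633 tested genes these counts were 5629 and 5618. In ZF against ZL, 15 of the 68 were called higher (22.1%) and 2 lower (2.94%), at an adjusted p-value under 0.05 with limma. A call, or its absence, is that of limma with all 12 rats wherever no other tool, setting or left-out rat is named. Over all 11633 genes tested, 8.19% were called higher and 10.6% lower in this comparison. In ZF-SGLT2i against ZF, 12 matrix genes were called lower (17.6%) and 0 higher, where 1.75% of all tested genes were called lower and 1.39% higher. At an unadjusted p under 0.05 this comparison had 30 matrix genes, and edgeR called 14 and DESeq2 22, in each case 0 of them higher. Over all tested genes the same 3 counts, in both directions together, were 1996, 368 and 641. In ZF-SGLT2i against ZL, 7 were called higher (10.3%) and 15 lower (22.1%), beside 12.4% higher and 15% lower among all genes. The median log2 fold change of the 68 genes was 0.26, −0.26 and −0.09 in the 3 comparisons, and that of all tested genes −0.01, 0.01 and 0.00. The comparisons share rats, ZF in the first pair, and are not independent of each other.

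ZF and ZL rats were fully apart for 15 matrix genes, 13 of them higher in ZF, where 19.0% of all tested genes were apart. Treated and untreated ZF rats were apart for 19 genes, all 19 lower, where 11.2% of all tested genes were apart. Treated and lean rats were apart for 23 genes, 8 higher and 15 lower, where 28.0% of all tested genes were apart. Counts of called matrix genes with 1 rat left out follow, each with the count over all tested genes in brackets. In ZF against ZL they were 11 (1389) without ZL rat 1, 10 (1451) without ZF rat 2 and 11 (1426) without ZF rat 3. For treated against untreated ZF rats they were 7 (207) without ZF rat 2 and 7 (184) without ZF rat 3. They were 4 (187) without ZF rat 4 and 24 (570) without ZF rat 5. Without ZF-SGLT2i rats 3, 4 and 6 in turn, 5 matrix genes were called each time (176, 210 and 182). All matrix calls of treated against untreated rats were lower. In ZF-SGLT2i against ZL the counts were 14 (2273) without ZL rat 1 and 14 (2241) without ZF-SGLT2i rat 6. In ZF-SGLT2i against ZF, 4 calls held in all 22 alternative settings, those of Col3a1, Col4a1, Col11a1 and Lama1. The settings named beside a single gene's lost or added call leave out the fit with the replicate number as a block, since the numbers did not pair the rats, and that fit ended 16 matrix gene calls and added 12 over the 3 comparisons.

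**Figure D1:**
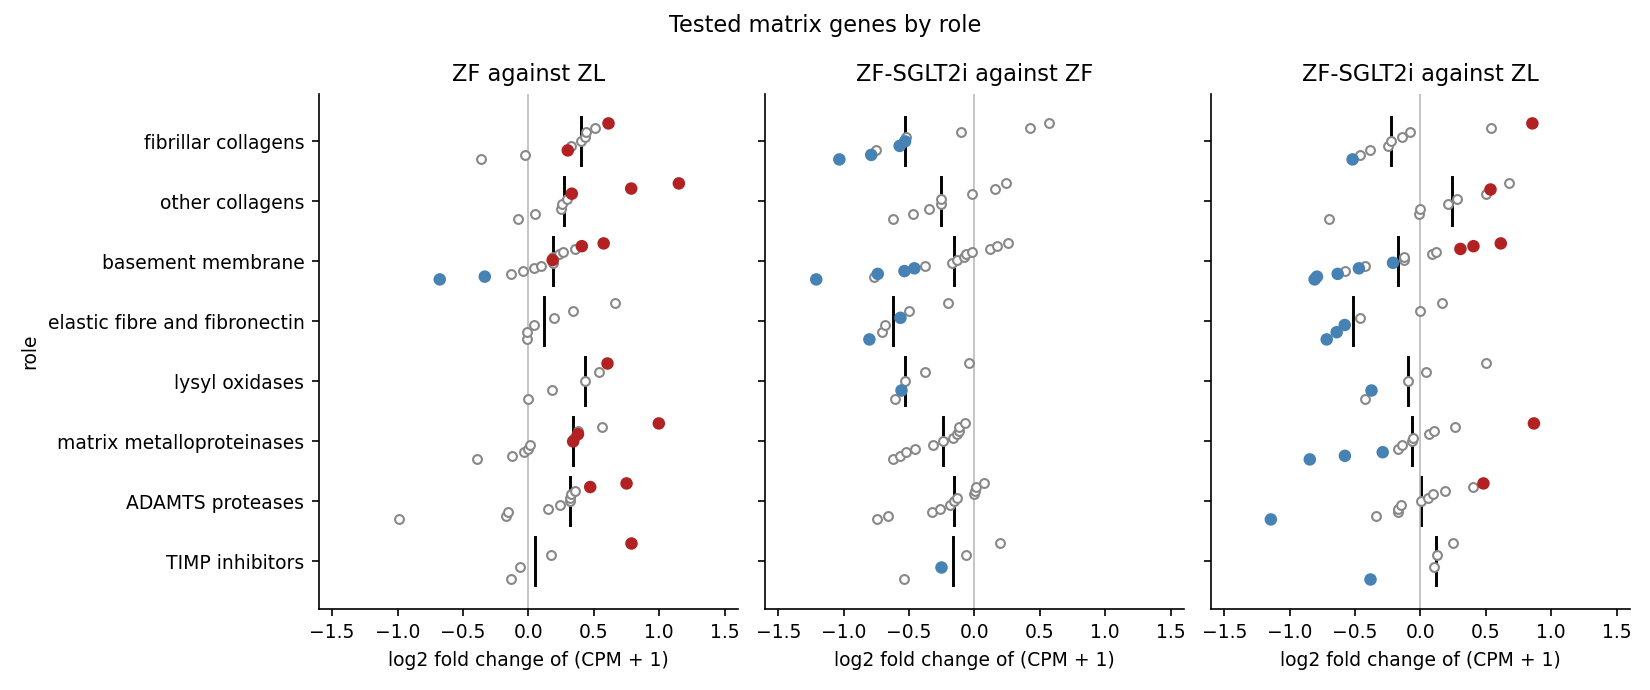
Log2 fold change of (CPM + 1) on the x axis for each of the 68 tested matrix genes, sorted by role on the y axis, in the 3 comparisons. Filled circles are genes called at an adjusted p under 0.05 (red higher, blue lower), open circles were not called, and black lines are the medians of a role; ZF-SGLT2i against ZF has 12 filled circles, all to the left of 0.

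Among fibrillar collagens, 2 of the 9 tested, Col1a1 and Col11a1, were called higher in ZF against ZL, beside 8.19% of all tested genes. The median log2 fold change of the 9 was 0.40. With treatment, 4 of 9 (Col1a2, Col3a1, Col5a1 and Col11a1) were called lower and 0 higher, beside 1.75% and 1.39% of all tested genes. The median of the 9 was −0.53. The promoters of Col1a2, a type I collagen chain, and Col11a1, a minor fibril-forming chain, are shown because both genes were called lower in ZF-SGLT2i and both have an entry in RefSeq's promoter table of the rat assembly GRCr8, which has none for Col1a1 and Col3a1. Each is the 250 bases before the gene's start as that promoter table places it, and where transcription starts was not measured here. Capitals mark the motifs searched, and a match on the other strand appears as its reverse complement. The first was CCAAT, known as the CCAAT box. Another was the GC box GGGCGG. The last was TATAAA, the TATA box. The matches shown do not overlap each other.
Col1a2, chr4:33518307-33518556 (plus strand): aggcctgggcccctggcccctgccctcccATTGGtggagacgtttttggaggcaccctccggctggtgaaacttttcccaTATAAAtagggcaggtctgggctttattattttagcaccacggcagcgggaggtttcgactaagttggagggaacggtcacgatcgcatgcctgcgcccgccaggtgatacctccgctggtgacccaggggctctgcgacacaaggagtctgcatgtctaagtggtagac
Col11a1, chr2:204508886-204509135 (plus strand): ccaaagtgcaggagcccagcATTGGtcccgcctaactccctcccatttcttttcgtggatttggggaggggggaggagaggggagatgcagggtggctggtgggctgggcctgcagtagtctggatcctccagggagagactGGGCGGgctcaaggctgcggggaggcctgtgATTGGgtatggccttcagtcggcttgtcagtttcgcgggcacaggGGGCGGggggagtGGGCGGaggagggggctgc
Col1a2 held 1 CCAAT motif and 1 TATAAA motif, and Col11a1 2 CCAAT and 3 GGGCGG motifs. In the same window, CCAAT was found in 34.0% of 33469 promoters, GGGCGG in 30.5% and TATAAA in 12.9%. Among the 54 matrix genes with an entry these shares were 22.2%, 57.4% and 18.5%. Among the 11 of the 12 genes called lower in ZF-SGLT2i than in ZF that had an entry, 4 held CCAAT, 5 held GGGCGG and 2 held TATAAA.

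Col3a1, the chain of type III collagen, had the largest fall of the fibrillar list in ZF-SGLT2i against ZF. It stood at 108, 112, 74.4 and 102 CPM in ZL rats 1 to 4, 178, 120, 171 and 106 in ZF rats 2 to 5, and 81.1, 72.1, 63.4 and 57.7 in ZF-SGLT2i rats 2, 3, 4 and 6. Every ZF-SGLT2i rat was below every ZF rat (log2 fold change −1.03 ± 0.17 SE, adjusted p = 0.00553). ZF and ZL overlapped, and the difference missed the threshold with limma (log2 fold change 0.51 ± 0.17 SE, adjusted p = 0.0515), but passed it with DESeq2, with edgeR, with quantile normalization or without ZL rat 2 or without ZF rat 5 (adjusted p = 0.0153 to 0.0445). ZF-SGLT2i was also lower than ZL (log2 fold change −0.52 ± 0.17 SE, adjusted p = 0.0376), with overlap. The call against ZL was lost with quantile normalization or without ZL rat 1, 2 or 4 or without ZF-SGLT2i rat 3, 4 or 6 (adjusted p = 0.0552 to 0.112).

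Col1a1, which encodes the main chain of type I collagen, was at 88.5, 84.4, 54.3 and 83.1 CPM in ZL, 155, 88.5, 150 and 91.7 in ZF and 73.7, 64.6, 81.7 and 58.4 in ZF-SGLT2i rats. It rose in ZF against ZL, where the lowest ZF and the highest ZL value were alike to 3 digits (log2 fold change 0.61 ± 0.20 SE, adjusted p = 0.0435). This call was lost with array quality weights, with only the 2 groups fitted or without ZL rat 1, 3 or 4, ZF rat 2 or 4 or without ZF-SGLT2i rat 2 or 3 (adjusted p = 0.0544 to 0.131). All ZF-SGLT2i rats were below all ZF rats. With limma the adjusted p missed the threshold (log2 fold change −0.75 ± 0.20 SE, adjusted p = 0.0555), but it was called with DESeq2, with edgeR, with array quality weights, with only the 2 groups fitted, with quantile normalization or without ZL rat 3 or 4 or without ZF rat 3 or 5 (adjusted p = 0.00271 to 0.0484). The treated rats did not differ detectably from ZL, with a log2 fold change of −0.14 (95% interval −0.56 to 0.28, adjusted p = 0.633).

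Col1a2 was at 91.3, 88.9, 58.7 and 114 CPM in ZL, 133, 108, 130 and 89.3 in ZF and 71.0, 63.9, 66.1 and 61.0 in ZF-SGLT2i rats. It fell in ZF-SGLT2i against ZF without overlap (log2 fold change −0.79 ± 0.16 SE, adjusted p = 0.0205). This call was lost without ZF rat 2, 3 or 4 or without ZF-SGLT2i rat 3, 4 or 6 (adjusted p = 0.0510 to 0.0650). In ZF against ZL its log2 fold change was 0.40 (95% interval 0.05 to 0.76, adjusted p = 0.106), with ZL and ZF overlapping, and it was called without ZL rat 4 (adjusted p = 0.0315). Against ZL the treated rats had a log2 fold change of −0.39 (95% interval −0.74 to −0.03, adjusted p = 0.0976), called with DESeq2, with array quality weights or without ZL rat 3 (adjusted p = 0.00742 to 0.0494).

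The type V chain Col5a1, which helps to set fibril width, was at 32.9, 40.9, 28.5 and 40.7 CPM in ZL, 54.7, 36.2, 48.4 and 41.0 in ZF and 31.8, 28.8, 27.0 and 31.2 in ZF-SGLT2i rats. It fell with treatment (log2 fold change −0.57 ± 0.13 SE, adjusted p = 0.0313). This call was lost without ZF rat 2 or 4 or without ZF-SGLT2i rat 2, 3, 4 or 6 (adjusted p = 0.0532 to 0.0946). Col11a1 was at 24.4, 24.0, 20.2 and 21.9 CPM in ZL, 31.1, 26.6, 26.6 and 28.2 in ZF and 19.3, 18.1, 16.7 and 22.9 in ZF-SGLT2i rats. Its ZF rats were above all rats of both other groups. Its level rose in ZF (log2 fold change 0.30 ± 0.10 SE, adjusted p = 0.0441) and fell with treatment (log2 fold change −0.53 ± 0.10 SE, adjusted p = 0.00941). The first of these calls was lost with array quality weights, with no filter on low values or without ZL rat 1, 3 or 4, ZF rat 2, 3 or 5 or without ZF-SGLT2i rat 2 or 3 (adjusted p = 0.0509 to 0.129), and the second held in all 22 alternatives. Treated against lean rats had a log2 fold change of −0.23 (95% interval −0.44 to −0.02, adjusted p = 0.0972), called with array quality weights or without ZF-SGLT2i rat 6 (adjusted p = 0.0258 to 0.0305).

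Among the other fibrillar chains, Col5a2 had a log2 fold change of 0.44 against lean rats and −0.52 with treatment, and neither was called with limma or edgeR. The first was called with DESeq2, with array quality weights or without ZL rat 4 or without ZF rat 5 (adjusted p = 0.0377 to 0.0464), and the second with DESeq2, with array quality weights or without ZF rat 5 (adjusted p = 0.0300 to 0.0486). Col27a1 had another order. It was called higher in ZF-SGLT2i than in ZL (log2 fold change 0.86 ± 0.27 SE, adjusted p = 0.0288), with ZF rats spread from 49.0 to 142 CPM, and the call was lost without ZL rat 1, 2 or 4 or without ZF-SGLT2i rat 3 or 6 (adjusted p = 0.0532 to 0.0863). In ZF its log2 fold change against lean rats was 0.43 (adjusted p = 0.278), called without ZF rat 4 (adjusted p = 0.0314). With all rats, limma called Col11a2 and Col5a3 in no comparison, with adjusted p-values of 0.163 and 0.109 in ZF-SGLT2i against ZL, where Col11a2 was called with array quality weights or without ZL rat 3 (adjusted p = 0.0258 to 0.0270). Col2a1 was below the filter, on 0 to 9 reads per rat. With no filter on low values it was called higher in treated than in lean rats.

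**Figure D2:**
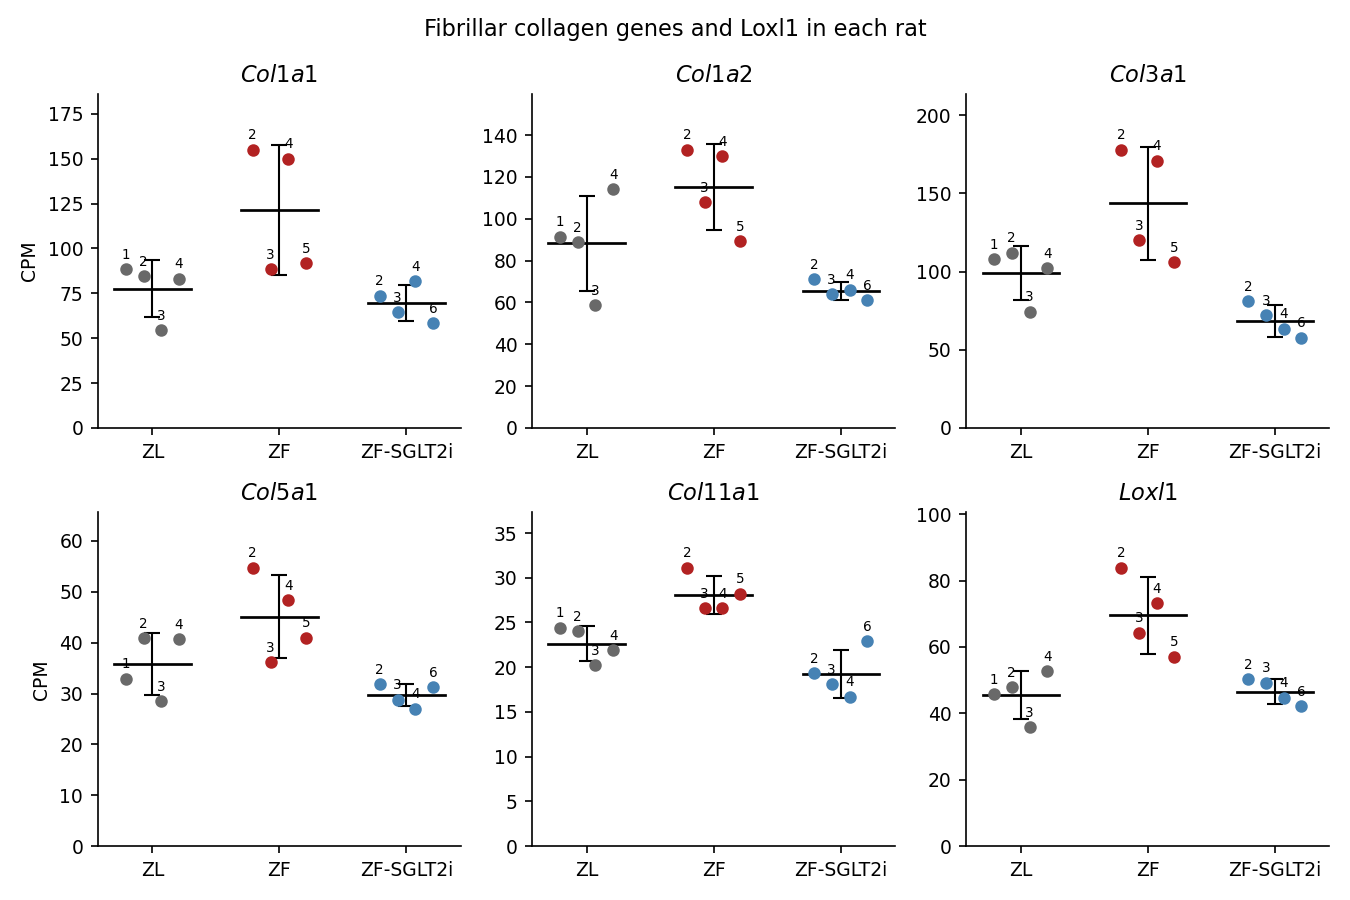
CPM in each rat (points, with the rat number above each), mean (line) and SD (bar), for 5 fibrillar collagen genes and Loxl1 in ZL, ZF and ZF-SGLT2i rats (n = 4 each). ZF rats 2 and 4 were the highest for Col1a1, Col1a2, Col3a1, Col5a1 and Loxl1, and the 4 ZF-SGLT2i rats lay below all ZF rats in each panel.

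Basement membrane genes split by chain. Against lean rats, 3 of the 14 in ZF were called higher (Lama1, Lama4, Lamc1) and 2 lower (Col4a3, Col4a4). With treatment, 4 were called lower (Col4a1, Col4a4, Lama1, Lama4) and 0 higher. In ZF-SGLT2i against ZL, 3 genes were called higher, Lama5 and Lamb2 among them, and 5 genes lower (Col4a1, Col4a3, Col4a4, Lama1, Nid2). The median log2 fold changes of the 14 were 0.19, −0.15 and −0.17. Col4a2, Col4a5, Lamb1 and Nid1 were not analysed here.

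The type IV collagen genes lie in head-to-head pairs that start on opposite strands. In the GRCr8 promoter table, 76 bases separate the starts of Col4a1 and Col4a2, and 412 bases those of Col4a3 and Col4a4. These stretches are shown because the paired genes Col4a3 and Col4a4 were both lower in ZF than in ZL. The first is the whole stretch between Col4a2 and Col4a1 and the others are the 250 bases before each start, with capitals for the same motifs.
Col4a1, chr16:84885521-84885596 (plus strand): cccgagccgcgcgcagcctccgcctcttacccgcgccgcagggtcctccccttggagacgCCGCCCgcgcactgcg
Col4a3, chr9:91323740-91323989 (plus strand): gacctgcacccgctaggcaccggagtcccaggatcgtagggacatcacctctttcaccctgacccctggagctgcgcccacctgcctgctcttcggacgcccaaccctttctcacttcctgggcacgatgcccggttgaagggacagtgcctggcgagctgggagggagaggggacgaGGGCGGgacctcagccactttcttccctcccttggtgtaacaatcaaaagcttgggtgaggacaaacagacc
Col4a4, chr9:91323578-91323827 (minus strand): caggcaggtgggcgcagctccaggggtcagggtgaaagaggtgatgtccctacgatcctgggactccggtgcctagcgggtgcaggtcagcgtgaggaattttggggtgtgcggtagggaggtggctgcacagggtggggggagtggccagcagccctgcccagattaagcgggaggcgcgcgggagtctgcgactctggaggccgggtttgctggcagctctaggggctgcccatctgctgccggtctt
The Col4a1 stretch held 1 GGGCGG motif on the reverse strand, Col4a3 held 1 GGGCGG, and none of the letters searched was in the 250 bases before Col4a4.

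Col4a1 was at 558, 659, 524 and 551 CPM in ZL, 725, 642, 812 and 591 in ZF and 426, 409, 431 and 383 in ZF-SGLT2i rats. Every treated rat was below every other rat, and the SD was 97.0 CPM in ZF and 21.5 in ZF-SGLT2i. It fell in ZF-SGLT2i against ZF (log2 fold change −0.74 ± 0.10 SE, adjusted p = 0.00113) and lay below ZL as well (log2 fold change −0.47 ± 0.10 SE, adjusted p = 0.00339), and both calls held in all 22 alternatives. Against lean rats the log2 fold change in ZF was 0.27 (95% interval 0.06 to 0.48, adjusted p = 0.0714), which was called with DESeq2, with quantile normalization or without ZL rat 2 or without ZF rat 5 (adjusted p = 0.00327 to 0.0330).

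Col4a3 showed another order. It was at 435, 494, 613 and 418 CPM in ZL, 305, 300, 280 and 328 in ZF and 257, 260, 282 and 307 in ZF-SGLT2i rats. All 8 fatty rats, treated or not, were below all 4 lean rats. It fell in ZF against ZL (log2 fold change −0.68 ± 0.11 SE, adjusted p = 0.00117), and its log2 fold change in ZF-SGLT2i against ZF was −0.13 (95% interval −0.36 to 0.09, adjusted p = 0.570). ZF-SGLT2i was below ZL (log2 fold change −0.81 ± 0.11 SE, adjusted p = 0.000164), and both calls against ZL held in all 22 alternatives.

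Col4a4 was at 79.0, 90.2, 100 and 73.4 CPM in ZL, 62.6, 61.0, 74.8 and 72.1 in ZF and 48.4, 49.1, 51.1 and 46.6 in ZF-SGLT2i rats, a descending order in which ZL and ZF overlapped. It fell in ZF against ZL (log2 fold change −0.33 ± 0.09 SE, adjusted p = 0.0250), a call lost with only the 2 groups fitted or without ZL rat 2 or 3 or without ZF rat 2 or 3 (adjusted p = 0.0538 to 0.0794). Treated rats were all below ZF rats (log2 fold change −0.46 ± 0.09 SE, adjusted p = 0.0175), a call lost without ZF rat 4 or without ZF-SGLT2i rat 3 or 6 (adjusted p = 0.0521 to 0.0573). Their difference from ZL was the larger (log2 fold change −0.79 ± 0.09 SE, adjusted p = 8.37e-05) and held in all 22 alternatives.

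Ratios within a rat, formed after the values had been seen and given without a test, put these changes side by side. The CPM of Col4a1 over that of Col4a3 was 1.28, 1.33, 0.854 and 1.32 in ZL, 2.38, 2.14, 2.90 and 1.80 in ZF and 1.65, 1.57, 1.52 and 1.25 in ZF-SGLT2i rats. All ZF rats were above all others, and ZF-SGLT2i overlapped with ZL. The CPM of Col4a4 over that of Col4a3 was 0.164 to 0.183 in lean rats, 0.204 to 0.267 in ZF and 0.152 to 0.189 in treated rats, with all ZF rats above all others. Col18a1, the core protein of a basement membrane proteoglycan, ranged over 240 to 315 CPM in lean rats, 292 to 337 in ZF and 287 to 311 in treated rats, with log2 fold changes of 0.10, −0.02 and 0.08, none of them called by limma. Col15a1, another basement membrane zone collagen, was at 22.0 ± 4.16, 26.0 ± 8.56 and 14.8 ± 5.27 CPM and was not called by limma either (adjusted p = 0.105 in ZF-SGLT2i against ZF). It was called lower with treatment with DESeq2 or without ZF rat 5 or without ZF-SGLT2i rat 2 (adjusted p = 0.0286 to 0.0420), and lower in treated than in lean rats with array quality weights or without ZF-SGLT2i rat 2 (adjusted p = 0.0224 to 0.0442).

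Among laminins, Lama1 had the largest change. This alpha chain is abundant in developing kidney and is kept in adult tubular and mesangial matrix. It was at 51.3, 65.3, 81.2 and 46.5 CPM in ZL, 81.3, 82.2, 90.3 and 106 in ZF and 41.9, 38.7, 39.2 and 33.2 in ZF-SGLT2i rats. The 3 groups did not overlap, with ZF the highest and ZF-SGLT2i the lowest, although the lowest ZF rat was only just above the highest ZL rat. It rose in ZF (log2 fold change 0.58 ± 0.15 SE, adjusted p = 0.0153) and fell with treatment (log2 fold change −1.21 ± 0.15 SE, adjusted p = 0.000689) to below ZL (log2 fold change −0.63 ± 0.15 SE, adjusted p = 0.00600). The rise was lost without ZL rat 1 (adjusted p = 0.0519), and both other calls held in all 22 alternatives. The 250 bases before its start are shown for this pattern.
Lama1, chr9:115139298-115139547 (plus strand): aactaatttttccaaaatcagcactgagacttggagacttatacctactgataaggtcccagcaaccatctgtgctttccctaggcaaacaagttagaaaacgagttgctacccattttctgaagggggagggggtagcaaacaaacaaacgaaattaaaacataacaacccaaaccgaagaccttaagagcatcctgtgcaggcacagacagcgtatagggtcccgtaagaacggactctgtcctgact
The stretch was 44.8% G and C, against 62.0% before Col4a3 and 78.9% between Col4a2 and Col4a1, and held none of the motifs searched.

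Lama4, an alpha chain of vascular and mesenchymal basement membranes, was at 18.4, 21.7, 13.9 and 20.6 CPM in ZL, 24.5, 24.3, 26.2 and 24.2 in ZF and 15.7, 16.5, 15.6 and 19.7 in ZF-SGLT2i rats. Its level rose in ZF (log2 fold change 0.41 ± 0.12 SE, adjusted p = 0.0282) and fell with treatment (log2 fold change −0.53 ± 0.12 SE, adjusted p = 0.0264). These calls were lost with only the 2 groups fitted or without ZL rat 1 or 3 or without ZF rat 2, 3, 4 or 5 (adjusted p = 0.0510 to 0.0637) and, for treatment, without ZF rat 2, 3 or 4 or without ZF-SGLT2i rat 2, 3 or 4 (adjusted p = 0.0641 to 0.0779).

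The chains of the mature glomerular laminin, measured here in whole cortex, had another order. Lama5 was at 335, 376, 376 and 322 CPM in ZL, 438, 423, 323 and 486 in ZF and 432, 486, 451 and 496 in ZF-SGLT2i rats. Its treated rats were all above the lean rats (log2 fold change 0.41 ± 0.11 SE, adjusted p = 0.0125), in all 22 alternatives, and ZF overlapped with both. Lamb2 was at 255, 297, 266 and 247 CPM in ZL, 316, 322, 260 and 315 in ZF and 305, 342, 306 and 365 in ZF-SGLT2i rats, again higher in treated than in lean rats (log2 fold change 0.31 ± 0.09 SE, adjusted p = 0.0175), a call lost without ZL rat 1 or without ZF-SGLT2i rat 3 or 6 (adjusted p = 0.0519 to 0.0607). ZF rat 4 was the lowest ZF rat for both, and without it both were called higher in ZF than in ZL (limma, adjusted p = 0.00854 for Lama5 and 0.0331 for Lamb2). Array quality weights also called the first (adjusted p = 0.0448) and quantile normalization the second (adjusted p = 0.0415). With treatment the log2 fold change was 0.17 (95% interval −0.06 to 0.40, adjusted p = 0.438) for Lama5 and 0.12 (95% interval −0.06 to 0.30, adjusted p = 0.519) for Lamb2.

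Lamc1, the gamma chain shared by most laminins, was at 178, 193, 157 and 168 CPM in ZL, 200, 199, 198 and 193 in ZF and 177, 189, 193 and 196 in ZF-SGLT2i rats. All ZF rats were at or above the highest ZL rat. It was only just called (log2 fold change 0.19, adjusted p = 0.04999) and the call was lost with no filter on low values, with only the 2 groups fitted, with a pseudocount of 0.1 or without ZL rat 1, 3 or 4, ZF rat 2, 3, 4 or 5 or without ZF-SGLT2i rat 2, 3, 4 or 6 (adjusted p = 0.0504 to 0.131). The treated rats had a log2 fold change of 0.12 against lean rats (adjusted p = 0.166), called with quantile normalization or without ZL rat 2 (adjusted p = 0.0254 to 0.0471). Nid2, a linker of laminin and collagen, was lower in treated than in lean rats (log2 fold change −0.21 ± 0.07 SE, adjusted p = 0.0376). The Nid2 call was lost with quantile normalization or without ZL rat 1 or 4 or without ZF-SGLT2i rat 3, 4 or 6 (adjusted p = 0.0507 to 0.113). With all rats, limma called neither Lamb3 nor Lamc3, but Lamc3 was called lower in treated than in lean rats with DESeq2, with edgeR, with array quality weights, with only the 2 groups fitted or without ZL rat 3 or without ZF rat 5 (adjusted p = 0.0129 to 0.0496).

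**Figure D3:**
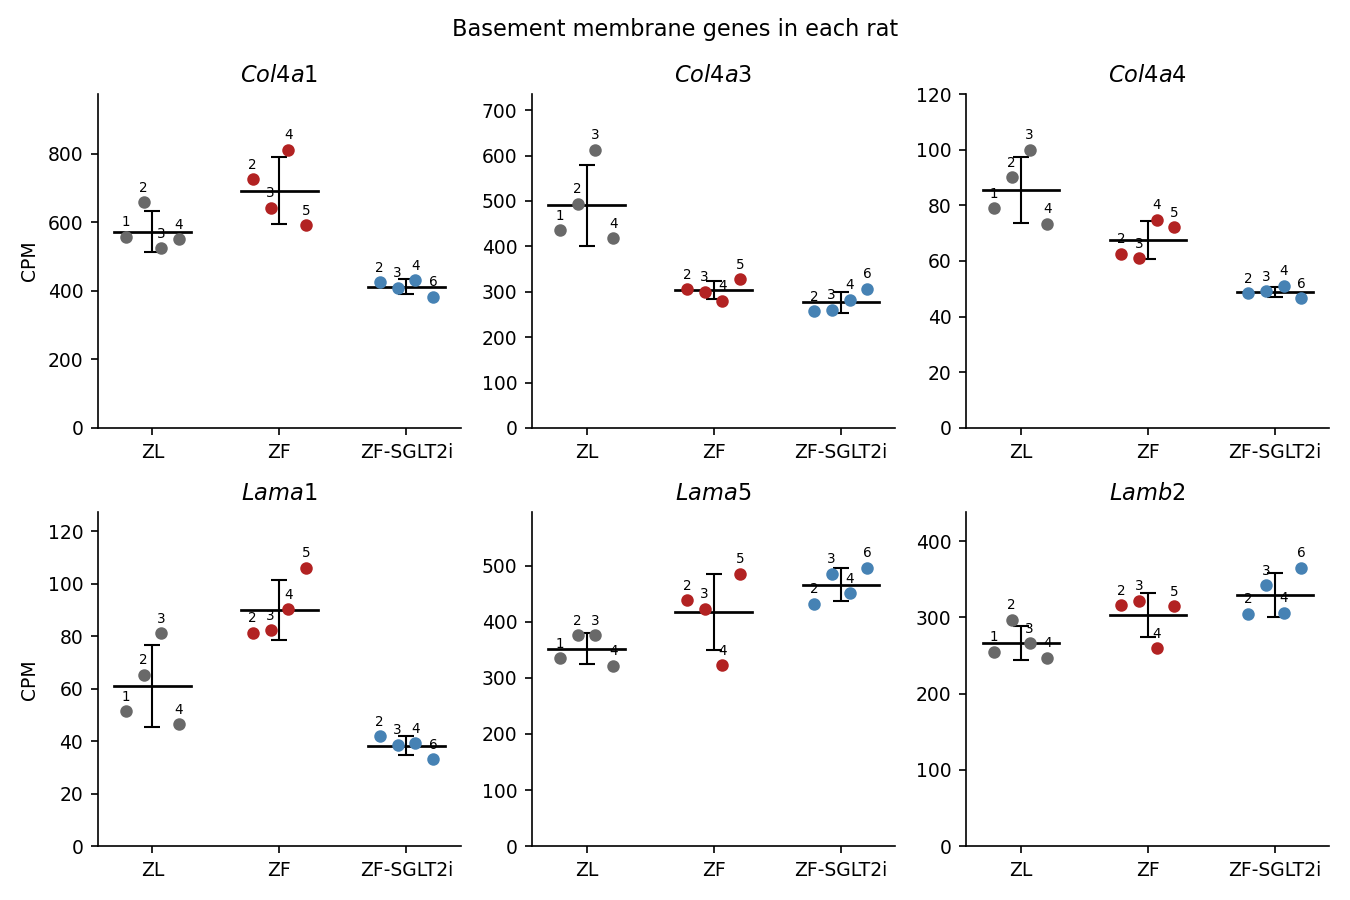
CPM in each rat (points, with the rat number above each), mean (line) and SD (bar), for 6 basement membrane genes in ZL, ZF and ZF-SGLT2i rats (n = 4 each). Col4a3 was below ZL in all 8 fatty rats, Col4a1 and Lama1 were lowest in the 4 ZF-SGLT2i rats, and Lama5 and Lamb2 were higher in ZF-SGLT2i than in ZL rats.

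Of the other collagens, 3 of 8 tested were called higher in ZF than in ZL, beside 8.19% of all tested genes. None was called in ZF-SGLT2i against ZF, where 0 of 8 passed with limma, 0 with edgeR and 1 with DESeq2. There 1 had an unadjusted p under 0.05, and the median log2 fold change was −0.25. Col16a1, a fibril-associated collagen, was at 8.97, 6.16, 5.90 and 7.41 CPM in ZL, 16.5, 10.7, 12.7 and 12.0 in ZF and 12.2, 12.9, 7.85 and 10.1 in ZF-SGLT2i rats. It rose in ZF (log2 fold change 0.79 ± 0.17 SE, adjusted p = 0.00629) in all 22 alternatives and was still above ZL in treated rats (log2 fold change 0.53 ± 0.17 SE, adjusted p = 0.0292), a call lost without ZL rat 2 or 3 or without ZF-SGLT2i rat 2, 3 or 6 (adjusted p = 0.0550 to 0.0921). Col8a1, a network-forming collagen of vessels, was at 2.15, 1.91, 1.25 and 1.88 CPM in ZL, 9.01, 3.71, 7.44 and 2.62 in ZF and 4.67, 4.34, 2.72 and 2.45 in ZF-SGLT2i rats. It had the largest rise of the matrix genes in ZF (log2 fold change 1.15 ± 0.28 SE, adjusted p = 0.0139), with ZF rats 2 and 4 the highest of all rats. In treated against lean rats its log2 fold change was 0.68 (95% interval 0.07 to 1.29, adjusted p = 0.0917), called with DESeq2, with only the 2 groups fitted or without ZF rat 5 (adjusted p = 0.0250 to 0.0476). Col6a2, a chain of microfibrillar type VI collagen, was at 47.8, 51.8, 37.8 and 43.6 CPM in ZL, 63.4, 57.3, 61.1 and 47.0 in ZF and 46.0, 44.8, 41.4 and 45.9 in ZF-SGLT2i rats. It rose in ZF with overlap (log2 fold change 0.33 ± 0.10 SE, adjusted p = 0.0370). This call was lost with only the 2 groups fitted or without ZL rat 1, 3 or 4, ZF rat 2, 3 or 4 or without ZF-SGLT2i rat 3 (adjusted p = 0.0513 to 0.109). All 4 treated rats were below all ZF rats, with an adjusted p of 0.0889 from limma, and this was called with DESeq2, with array quality weights or without ZF rat 5 (adjusted p = 0.0190 to 0.0310). Col7a1, the anchoring fibril collagen, was called higher in treated than in lean rats with array quality weights (adjusted p = 0.0282).

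Of the 6 genes of elastic fibres and fibronectin, 2 were called lower in treated than in untreated ZF rats and 3 lower than in lean rats, with medians of −0.63 and −0.52. None was called in ZF against ZL (0 with limma, edgeR and DESeq2, and 1 at an unadjusted p under 0.05), where the median was 0.12. Fbn1, the core of microfibrils, was at 53.9, 60.0, 42.9 and 59.8 CPM in ZL, 89.5, 60.3, 91.3 and 44.2 in ZF and 45.3, 37.4, 36.4 and 36.6 in ZF-SGLT2i rats. It fell with treatment (log2 fold change −0.80 ± 0.19 SE, adjusted p = 0.0354), although ZF rat 5 lay below ZF-SGLT2i rat 2, and the call was lost without ZL rat 1, ZF rat 2, 3 or 4 or without ZF-SGLT2i rat 3, 4 or 6 (adjusted p = 0.0527 to 0.108). Its log2 fold change was 0.34 in ZF against lean rats, called without ZF rat 5 (adjusted p = 0.0298), and −0.46 in treated against lean rats, called with array quality weights, with only the 2 groups fitted or without ZF rat 5 (adjusted p = 0.0128 to 0.0398). Limma with all rats called neither (adjusted p = 0.232 and 0.0897). Fbln5, needed to assemble elastic fibres, was at 143, 149, 109 and 155 CPM in ZL, 134, 140, 166 and 112 in ZF and 91.2, 96.2, 87.7 and 93.1 in ZF-SGLT2i rats. Treated rats were below all others, both against ZF (log2 fold change −0.57 ± 0.12 SE, adjusted p = 0.0192) and against ZL (log2 fold change −0.58 ± 0.12 SE, adjusted p = 0.00285). The call against ZF was lost without ZF rat 3 or 4 or without ZF-SGLT2i rat 4 or 6 (adjusted p = 0.0512 to 0.0586), and that against ZL held in all 22 alternatives.

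Elastin itself, Eln, was at 17.6, 13.9, 13.7 and 17.0 CPM in ZL, 21.5, 15, 21.1 and 9.40 in ZF and 8.95, 11.6, 7.85 and 10.1 in ZF-SGLT2i rats. It was lower in treated than in lean rats (log2 fold change −0.64 ± 0.21 SE, adjusted p = 0.0337), a call lost without ZL rat 1 or 4 or without ZF-SGLT2i rat 2, 4 or 6 (adjusted p = 0.0611 to 0.0907). Against ZF its log2 fold change was −0.69 (95% interval −1.13 to −0.24, adjusted p = 0.0946), called with DESeq2, with array quality weights or without ZF rat 5 (adjusted p = 0.00516 to 0.0480). Fbln1, a fibulin of elastic fibres and basement membranes, was at 11.8, 12.7, 9.53 and 8.31 CPM in ZL, 14.5, 8.62, 12.7 and 7.21 in ZF and 6.76, 5.25, 6.14 and 5.80 in ZF-SGLT2i rats. The treated rats lay below all others (log2 fold change −0.72 ± 0.19 SE, adjusted p = 0.0118 against ZL, and adjusted p = 0.0569 against ZF). The difference from ZF was called with DESeq2, with edgeR, with array quality weights or without ZL rat 4 or without ZF rat 5 (adjusted p = 0.00595 to 0.0429). Fibronectin, Fn1, was at 102, 94.1, 64.7 and 125 CPM in ZL, 226, 124, 173 and 101 in ZF and 129, 119, 88.1 and 90.0 in ZF-SGLT2i rats. Its ZF rats spread over more than the other groups, and its log2 fold change was 0.66 (95% interval 0.16 to 1.17, adjusted p = 0.0648) against lean rats and −0.50 with treatment (adjusted p = 0.297). The first was called with quantile normalization or without ZL rat 4 or without ZF rat 5 (adjusted p = 0.0272 to 0.0452).

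Of the 5 lysyl oxidases, 1 was called higher in ZF than in ZL, beside 8.19% of all tested genes. With treatment 1 was called lower, beside 1.75%. Both calls were of Loxl1, which acts on elastin and collagen. It was at 45.8, 47.8, 35.8 and 52.7 CPM in ZL, 83.8, 64.3, 73.1 and 57.0 in ZF and 50.3, 49.2, 44.7 and 42.1 in ZF-SGLT2i rats. ZF was above both other groups without overlap (log2 fold change 0.60 ± 0.12 SE, adjusted p = 0.00574 against ZL). The fall with treatment (log2 fold change −0.56 ± 0.12 SE, adjusted p = 0.0270) was lost without ZF rat 2, 3 or 4 or without ZF-SGLT2i rat 3, 4 or 6 (adjusted p = 0.0551 to 0.0854). Loxl2, a relative that acts on type IV collagen, was at 9.60, 10.7, 7.14 and 11.4 CPM in ZL, 12.4, 11.1, 15 and 6.89 in ZF and 7.05, 5.86, 7.55 and 7.13 in ZF-SGLT2i rats. It had the lowest log2 fold change of the 5 with treatment, −0.60 (95% interval −1.01 to −0.20, adjusted p = 0.107), not called by limma with all rats but called with DESeq2, with array quality weights or without ZF rat 5 (adjusted p = 0.0101 to 0.0247). Against lean rats the treated rats had −0.43 (95% interval −0.83 to −0.02, adjusted p = 0.111), called with array quality weights, with only the 2 groups fitted or without ZL rat 3 or without ZF rat 5 (adjusted p = 0.0320 to 0.0489). Loxl3 was at 1.47 to 2.87 CPM in lean rats, 2.71 to 5.27 in ZF and 2.56 to 4.19 in treated rats, and was called higher in treated than in lean rats without ZF rat 2 (adjusted p = 0.0481). Lox was at 3.41, 3.21, 2.61 and 2.32 CPM in ZL, 5.08, 2.71, 7.61 and 2.84 in ZF and 2.76, 3.53, 2.31 and 2.01 in ZF-SGLT2i rats, with only ZF rats 2 and 4 above 5 CPM and no call by limma, edgeR or DESeq2 (adjusted p = 0.223 and 0.268). Loxl4 was at 11.7, 10.5, 9.41 and 10.1 CPM in ZL, 12.3, 10.5, 10.3 and 8.74 in ZF and 8.00, 7.77, 8.35 and 7.02 in ZF-SGLT2i rats and was lower in treated than in lean rats (log2 fold change −0.38 ± 0.11 SE, adjusted p = 0.0181), a call lost without ZL rat 1 or without ZF-SGLT2i rat 6 (adjusted p = 0.0583 to 0.0616). The difference of Loxl4 against ZF was not called by limma (adjusted p = 0.0752), but was called with array quality weights or without ZF rat 5 (adjusted p = 0.0286 to 0.0288).

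Some proteases were called higher in ZF rats. With treatment limma called none when all rats entered, and without ZF rat 5 it called 4 lower, Mmp2 (adjusted p = 0.0149), Mmp12 (0.0250), Adamts1 (0.0239) and Adamts2 (0.0473). Of 11 tested matrix metalloproteinases, 3 were called higher in ZF than in ZL, beside 8.19% of all tested genes. In ZF-SGLT2i against ZF 0 were called, beside 1.39% higher and 1.75% lower among all tested genes. There all 11 log2 fold changes were below 0, between −0.62 and −0.07. That comparison had 0 calls of metalloproteinases with edgeR, 1 with DESeq2, and 5 at an unadjusted p under 0.05. Mmp23, a membrane-bound enzyme, was at 5.65, 4.85, 4.08 and 5.00 CPM in ZL, 11.6, 8.82, 10.3 and 12.5 in ZF and 8.57, 11.8, 9.36 and 9.36 in ZF-SGLT2i rats. Lean rats lay below all fatty rats, treated or not (log2 fold change 1.00 ± 0.13 SE, adjusted p = 0.000296 and, in ZF-SGLT2i against ZL, log2 fold change 0.87 ± 0.13 SE, adjusted p = 0.000388), and both calls held in the 21 alternatives that tested it. Mmp14, a membrane-bound collagenase that activates the gelatinase Mmp2, was at 30.4, 31.9, 27.6 and 29.4 CPM in ZL, 41.5, 32.6, 38.0 and 40.7 in ZF and 31.0, 33.6, 33.6 and 30.0 in ZF-SGLT2i rats and rose in ZF (log2 fold change 0.34 ± 0.08 SE, adjusted p = 0.0112).

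Mmp11, a secreted metalloproteinase, was at 27.5, 29.7, 34.6 and 25.4 CPM in ZL, 38.2, 43.8, 40.7 and 31.3 in ZF and 33.0, 36.8, 33.3 and 37.7 in ZF-SGLT2i rats. It rose in ZF with overlap (log2 fold change 0.38 ± 0.11 SE, adjusted p = 0.0263), a call lost with only the 2 groups fitted or without ZL rat 1 or 4 or without ZF rat 2, 3 or 4 (adjusted p = 0.0526 to 0.0846). The difference of treated from lean rats was 0.26 (95% interval 0.03 to 0.49, adjusted p = 0.0848) on the log2 scale, called with array quality weights or without ZL rat 3 or without ZF rat 5 (adjusted p = 0.0296 to 0.0467). It overlaps Chchd10 on the other strand in GRCr8, and the strand setting of the counting is not given in the sources used here. Mmp2 was at 12.7, 15, 10.9 and 13.6 CPM in ZL, 17.8, 10.9, 16.4 and 8.53 in ZF and 8.76, 8.88, 7.35 and 8.47 in ZF-SGLT2i rats. Treated rats were below lean rats (log2 fold change −0.58 ± 0.18 SE, adjusted p = 0.0305), a call lost without ZL rat 1, 2 or 4 or without ZF-SGLT2i rat 2, 3, 4 or 6 (adjusted p = 0.0503 to 0.0734), and ZF was spread around the lean values, with ZF rats 2 and 4 above all lean rats and rats 3 and 5 at or below the lowest. With treatment the log2 fold change of Mmp2 was −0.57 (95% interval −0.96 to −0.18, adjusted p = 0.112), called with DESeq2 or without ZF rat 5 (adjusted p = 0.0149 to 0.0252). Mmp9, the other gelatinase, was at 2.69, 3.29, 2.38 and 3.31 CPM in ZL, 5.08, 3.21, 5.30 and 2.73 in ZF and 2.95, 2.02, 1.81 and 3.23 in ZF-SGLT2i rats, on 18 to 62 reads per rat, and was not called by limma, edgeR or DESeq2. Mmp20 was at 9.78, 9.02, 11.5 and 5.45 CPM in ZL, 5.37, 6.61, 7.35 and 6.23 in ZF and 5.24, 3.63, 4.73 and 4.01 in ZF-SGLT2i rats and was lower in treated than in lean rats (log2 fold change −0.85 ± 0.18 SE, adjusted p = 0.00370). In ZF its log2 fold change against lean rats was −0.39 (adjusted p = 0.142), called without ZL rat 4 (adjusted p = 0.0134). Mmp24, too, was lower in treated than in lean rats (log2 fold change −0.29 ± 0.09 SE, adjusted p = 0.0228). The Mmp24 call was lost without ZL rat 1 or 4 or without ZF-SGLT2i rat 2 or 3 (adjusted p = 0.0513 to 0.0659). Mmp12, the macrophage elastase, was at 0.987, 1.04, 0.794 and 1.07 CPM in ZL, 2.30, 1.90, 3.85 and 0.547 in ZF and 1.43, 1.01, 0.805 and 0.446 in ZF-SGLT2i rats, on 4 to 45 reads per rat. Its log2 fold change was 0.56 in ZF (adjusted p = 0.172) and −0.62 with treatment (adjusted p = 0.263). Both were called only without ZF rat 5, with adjusted p = 0.0187 and 0.0250.

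Of 11 tested ADAMTS proteases, 2 were called higher in ZF than in ZL, where 8.19% of all tested genes were. In ZF-SGLT2i against ZF 0 were called with limma, 0 with edgeR and 2 with DESeq2, beside 2 at an unadjusted p under 0.05. Adamts1, which cuts the proteoglycans aggrecan and versican, was at 115, 69.0, 86.0 and 91.8 CPM in ZL, 211, 124, 175 and 112 in ZF and 105, 102, 87.4 and 67.5 in ZF-SGLT2i rats. Its level rose in ZF (log2 fold change 0.75 ± 0.20 SE, adjusted p = 0.0201), a call lost without ZF rat 2 (adjusted p = 0.0598). Treated rats were below all ZF rats, with a log2 fold change of −0.75 (95% interval −1.18 to −0.32, adjusted p = 0.0616), called with DESeq2 or without ZF rat 5 (adjusted p = 0.00485 to 0.0239). Adamts15, a related protease, was at 11.7, 11.4, 9.75 and 9.20 CPM in ZL, 17.5, 13.8, 13.6 and 15.1 in ZF and 15.9, 17.4, 13.4 and 13.7 in ZF-SGLT2i rats. It was higher in both fatty groups than in lean rats without overlap (log2 fold change 0.47 ± 0.11 SE, adjusted p = 0.0112 for ZF and log2 fold change 0.48 ± 0.11 SE, adjusted p = 0.00640 for ZF-SGLT2i), in all 22 alternatives. Adamts4, an aggrecanase, was at 1.26, 3.55, 4.88 and 3.39 CPM in ZL, 2.40, 0.501, 1.54 and 0.328 in ZF and 0.952, 1.11, 1.21 and 0.223 in ZF-SGLT2i rats, on 2 to 43 reads per rat. It was lower in treated than in lean rats (log2 fold change −1.14 ± 0.33 SE, adjusted p = 0.0217), a call lost with array quality weights or without ZL rat 3 or without ZF-SGLT2i rat 6 (adjusted p = 0.0602 to 0.0738). The log2 fold change in ZF against lean rats was of similar size, −0.99 (95% interval −1.71 to −0.27, adjusted p = 0.0547), and was called with quantile normalization or without ZL rat 1 or without ZF rat 2 (adjusted p = 0.0226 to 0.0327). Adamts2, which removes the N-terminal propeptide of fibrillar procollagens, was at 4.49, 4.33, 3.63 and 4.47 CPM in ZL, 8.73, 3.81, 6.58 and 4.04 in ZF and 3.43, 2.32, 3.52 and 3.34 in ZF-SGLT2i rats. Treated rats were below all others. Its log2 fold change with treatment was −0.66 (95% interval −1.09 to −0.23, adjusted p = 0.0984), called with DESeq2 or without ZF rat 5 (adjusted p = 0.0281 to 0.0473). Outside limma with all rats, further calls against lean rats were those of Adamts10 in ZF with array quality weights or without ZL rat 3 or without ZF rat 4 (adjusted p = 0.0179 to 0.0388), of Adamts5 in ZF without ZF rat 5 (adjusted p = 0.0441) and of Adamts12 in treated rats with array quality weights or without ZF-SGLT2i rat 4 (adjusted p = 0.0165 to 0.0343), all 3 higher.

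The 4 TIMP inhibitors did not move together. Timp1, an inducible inhibitor of many metalloproteinases, was at 2.69, 2.86, 2.04 and 2.68 CPM in ZL, 6.81, 3.71, 6.07 and 4.37 in ZF and 3.52, 3.84, 2.72 and 2.90 in ZF-SGLT2i rats, on 18 to 71 reads per rat. In GRCr8 it overlaps Syn1 on the other strand. It rose in ZF without overlap (log2 fold change 0.78 ± 0.17 SE, adjusted p = 0.00634), and its log2 fold change with treatment was −0.53 (95% interval −0.89 to −0.18, adjusted p = 0.102). Timp2 was at 40.8, 49.8, 39.0 and 35.8 CPM in ZL, 46.4, 45.2, 49.3 and 44.6 in ZF and 43.4, 45.5, 42.8 and 45.0 in ZF-SGLT2i rats and was not called by limma, except without ZL rat 2, when it was called higher in ZF (adjusted p = 0.0150) and in treated rats (adjusted p = 0.0433) than in lean rats. Timp3, which binds to the matrix and also inhibits ADAMTS proteases, was at 392, 370, 392 and 380 CPM in ZL, 322, 359, 379 and 341 in ZF and 304, 300, 301 and 268 in ZF-SGLT2i rats. Treated rats were below all others (log2 fold change −0.25 ± 0.06 SE, adjusted p = 0.0425 against ZF and log2 fold change −0.39 ± 0.06 SE, adjusted p = 0.000707 against ZL). The call against ZF was lost with only the 2 groups fitted or without ZL rat 1, ZF rat 3 or 4 or without ZF-SGLT2i rat 2, 3, 4 or 6 (adjusted p = 0.0624 to 0.124), and that against ZL held in all 22 alternatives. Timp4 had log2 fold changes of −0.07, 0.19 and 0.13.

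**Figure D4:**
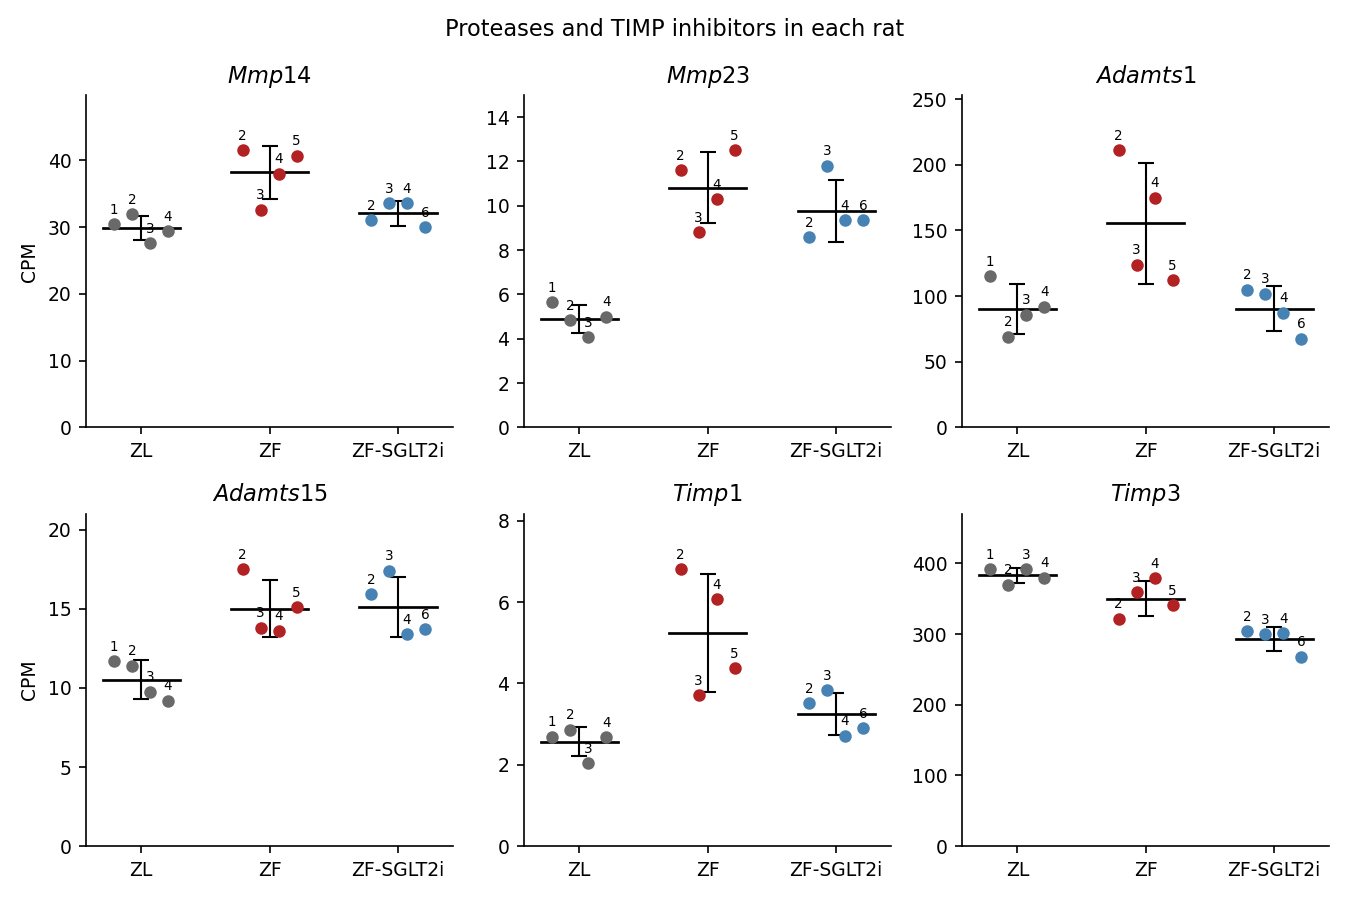
CPM in each rat (points, with the rat number above each), mean (line) and SD (bar), for 4 proteases and 2 TIMP inhibitors in ZL, ZF and ZF-SGLT2i rats (n = 4 each). Mmp23 and Adamts15 were higher in both fatty groups than in ZL, Timp1 was highest in ZF, and Timp3 was lowest in ZF-SGLT2i.

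ZF rats differed among themselves in many of these genes. For 33 of the 68 tested matrix genes (48.5%), ZF rats 2 and 4 were the highest of the 4 ZF rats, and over all tested genes this held for 19.2%. These were Col1a1, Col1a2, Col3a1, Col4a1, Fn1, Fbn1, Eln, Lox, Loxl1, Mmp2, Mmp9, Adamts1 and Timp1 among others. Lama1, Col4a3, Col4a4, Lama5, Timp3 and Mmp23 had another order. The summed CPM of the 10 fibrillar collagens was 432, 448, 363 and 447 in ZL, 696, 507, 612 and 534 in ZF and 411, 413, 389 and 409 in ZF-SGLT2i rats. The SD was 85.2 CPM in ZF and 11.1 CPM in ZF-SGLT2i.

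Markers of other cell types moved with these rats and groups, and their part in the results was not tested. The 7 listed injured tubule genes summed to 490, 442, 404 and 512 CPM in ZL, 2100, 812, 1550 and 671 in ZF and 1270, 1240, 919 and 548 in ZF-SGLT2i rats, 56.6% of it Spp1. They were highest in ZF rats 2 and 4. In ZF against ZL, 5 of the 7 were called higher, among them Havcr1, the kidney injury molecule (log2 fold change 3.01 ± 0.57 SE, adjusted p = 0.00376), and in ZF-SGLT2i against ZF 1 was called lower. The 7 smooth muscle genes, led by Myh11, summed to 206, 108, 153 and 90.4 CPM in ZF rats, and 1 of the 6 tested, Tagln, was lower with treatment (log2 fold change −0.77 ± 0.19 SE, adjusted p = 0.0443). The 8 fibroblast markers summed to 244 to 317 CPM in lean rats, 225 to 358 in ZF and 186 to 211 in treated rats, with Pdgfra the most abundant (49.0%).

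Of the 6 tested genes of the fibroblast list, 3 were called higher in ZF than in ZL and 3 lower with treatment. Cd34, 1 of those called lower, is not specific to fibroblasts. The small proteoglycan Dcn, which decorates collagen fibrils, fell with treatment (log2 fold change −1.11 ± 0.20 SE, adjusted p = 0.00827), and so did Dpt (log2 fold change −0.57 ± 0.10 SE, adjusted p = 0.00827) and Cd34 (log2 fold change −0.60 ± 0.13 SE, adjusted p = 0.0264). Pdgfra, the platelet-derived growth factor receptor of interstitial fibroblasts, had a log2 fold change of −0.32 (95% interval −0.56 to −0.08, adjusted p = 0.143). Pi16 and Scara5, which mark adventitial fibroblasts, rose in ZF and had log2 fold changes of −0.02 and −0.12 with treatment. Lum and Gli1 were below the filter.

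Of the 6 tested mesangial and juxtaglomerular markers, 3 were called higher in ZF than in ZL and 2, Pdgfrb and Aplnr, lower with treatment. Pdgfrb, a receptor of pericytes and mesangial cells, rose in ZF (log2 fold change 0.67 ± 0.12 SE, adjusted p = 0.00217) and fell with treatment (log2 fold change −0.50 ± 0.12 SE, adjusted p = 0.0309). Of 10 podocyte markers, 6 were higher in ZF than in ZL and 0 were called with treatment by limma (3 at an unadjusted p under 0.05), where the median log2 fold change was 0.01. Of 11 endothelial markers, 2 were higher in ZF and 0 were called with treatment by limma (1 at an unadjusted p under 0.05). None of 9 tested macrophage markers and none of 3 tested lymphocyte markers was called in any comparison with limma. At an unadjusted p under 0.05 the 3 comparisons had 3, 1 and 0 macrophage and 1, 2 and 1 lymphocyte markers. Csf1r led the macrophage list, Cd163 had a mean of 0.240, 0.344 and 0.463 CPM, and ZF-SGLT2i rat 2 had the highest macrophage sum, 162, 95.6, 78.4 and 98.0 CPM in the treated rats. Of 10 proximal tubule markers, 3 were lower and 1 higher in ZF than in ZL, and 1 was lower with treatment. Of the 3 tested genes listed for inner medulla and papilla, 1, the water channel gene Aqp2 of the collecting duct, was higher with treatment (log2 fold change 0.62 ± 0.16 SE, adjusted p = 0.0495), and 2 were higher in treated than in lean rats. The 6 genes of that list in the deposited table summed to 616, 778, 540 and 463 CPM in ZL, 738, 858, 586 and 855 in ZF and 997, 1080, 1060 and 1260 in ZF-SGLT2i rats, 75.4% of it Aqp2. All treated rats were above all others in this sum. Being mostly the level of 1 collecting duct gene, the sum does not measure how much medulla a sample held. Its part in the results was not tested. Left-over ribosomal RNA (Rn28s with Rn45s) made up 7.25% to 12.0% of a lean rat's reads, 8.82% to 12.0% of a ZF rat's and 11.5% to 15.2% of a treated rat's.

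**Figure D5:**
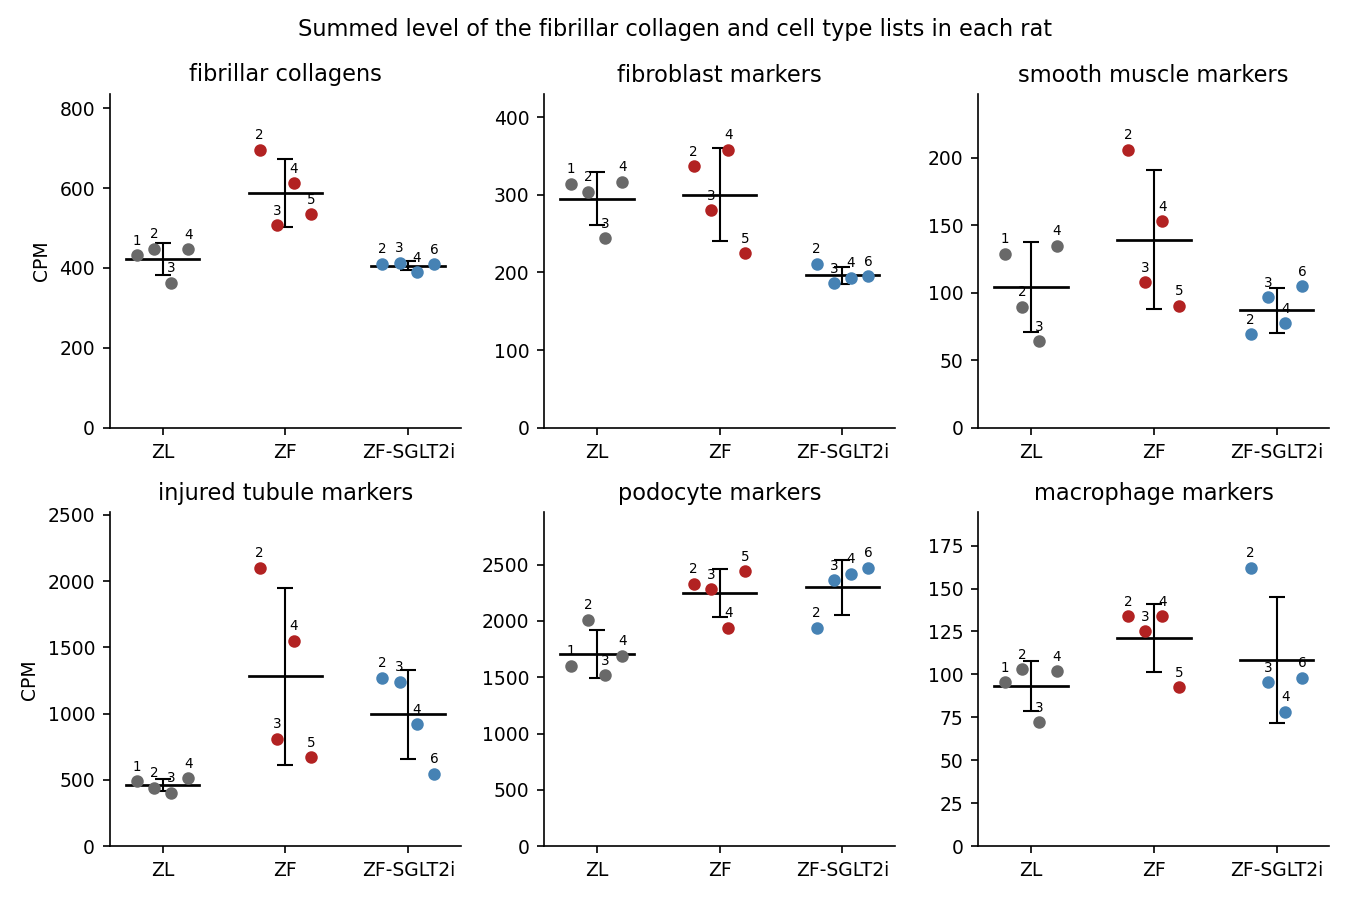
Summed CPM of the fibrillar collagens and of 5 lists of cell type markers in each rat (points, with the rat number above each), with mean (line) and SD (bar), in ZL, ZF and ZF-SGLT2i rats (n = 4 each). ZF rats 2 and 4 were highest for fibrillar collagens, fibroblast, smooth muscle and injured tubule markers, and the 4 ZF-SGLT2i rats were close together for fibrillar collagens (389 to 413 CPM) and fibroblast markers (186 to 211 CPM).

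Genes that act beside the matrix genes were counted in 4 further lists. Beside their counts, 8.19% of all tested genes were called higher and 10.6% lower in ZF against ZL, and 1.39% and 1.75% with treatment. Of 27 tested proteoglycans and matricellular proteins, 11 were called higher and 1 lower in ZF than in ZL, and 3 were lower and 0 higher with treatment. Ltbp2, a microfibril-bound relative of the TGF-beta binding proteins, rose in ZF (log2 fold change 1.75 ± 0.24 SE, adjusted p = 0.000488), as did Sparc, a collagen-binding protein (log2 fold change 0.58 ± 0.08 SE, adjusted p = 0.000796). The 3 lower with treatment were Dcn, Ecm1 (log2 fold change −0.58 ± 0.12 SE, adjusted p = 0.0158) and Tnc, the gene of tenascin-C (log2 fold change −0.80 ± 0.19 SE, adjusted p = 0.0352). Agrn, a heparan sulfate proteoglycan of basement membranes, was higher in treated than in lean rats (log2 fold change 0.24 ± 0.07 SE, adjusted p = 0.0149). Hspg2 was not analysed here.

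Of 18 genes for collagen folding and processing, 5 were called higher in ZF than in ZL and 3 lower with treatment. Tgm2, a transglutaminase that cross-links matrix proteins, was at 270, 271, 248 and 228 CPM in ZL, 320, 392, 486 and 276 in ZF and 155, 148, 175 and 185 in ZF-SGLT2i rats. Its level rose in ZF (log2 fold change 0.50 ± 0.14 SE, adjusted p = 0.0234) and fell with treatment (log2 fold change −1.12 ± 0.14 SE, adjusted p = 0.000845) without overlap. Serpinh1, the collagen chaperone of the endoplasmic reticulum, fell with treatment (log2 fold change −0.42 ± 0.07 SE, adjusted p = 0.00827), and Plod1, a collagen lysyl hydroxylase, did so too (log2 fold change −0.37 ± 0.09 SE, adjusted p = 0.0352). Pcolce, an enhancer of procollagen cleavage, rose in ZF (log2 fold change 0.59 ± 0.09 SE, adjusted p = 0.000791).

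Of 17 matrix receptors, 8 were called higher and 2 lower in ZF than in ZL, and 1 higher and 2 lower with treatment. Among all tested genes these shares were, in the same order, 8.19%, 10.6%, 1.39% and 1.75%. Itga11, a collagen-binding integrin of fibroblasts, fell with treatment (log2 fold change −0.94 ± 0.17 SE, adjusted p = 0.00863). The laminin-binding integrin Itga6 was lower in ZF than in ZL (log2 fold change −0.83 ± 0.11 SE, adjusted p = 0.000296) and lower again with treatment (log2 fold change −0.48 ± 0.11 SE, adjusted p = 0.0264). Sdc1, a cell surface proteoglycan, rose in both (log2 fold change 0.92 ± 0.09 SE, adjusted p = 3.37e-05 and log2 fold change 0.67 ± 0.09 SE, adjusted p = 0.00128). Of 6 plasminogen system genes, 2 were higher and 2 lower in ZF than in ZL, and 0 of 6 were called with treatment by limma (1 at an unadjusted p under 0.05). Plau, the gene of a plasminogen activator, fell in ZF (log2 fold change −0.97 ± 0.22 SE, adjusted p = 0.00895).

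The 8 matrix genes below the filter were Col2a1, Col9a1, Col23a1, Col26a1, Mmp16, Mmp21, Mmp28 and Adamts19, and none exceeded 15 reads in a rat. For single genes, an exact two-sided permutation test of 4 rats against 4 cannot go below p = 0.0286. Of the 12 genes called lower with treatment, the exact permutation test gave this smallest p for each but Fbn1, which had p = 0.0571. Groups without overlap always give the smallest p, and the genes were picked in these same rats, so it adds no support to the calls.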

How the data were processed

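RNA from the renal cortex of 12 rats was depleted of ribosomal RNA and sequenced from directional libraries. The submitters' processing notes name Trimmomatic 0.38, Bowtie2, RSEM 1.3.0, edgeR and the build rn6, and the strand setting is not given in the sources used here. The deposited signal was counts scaled by the authors. In every rat 100% of the values were whole reads times 1 constant (largest gap under 1e-06 reads), and the constants equalled those of edgeR's CPM with TMM factors. Depth per rat, given in the report, limits genes of few reads. Rats were grouped by their labels, and no column belonged to another sample (0 columns). Rats of a group differed by 5.63 to 52.5 chi-square units per gene, so none was a copy of another.

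Values were tested as log2(CPM + 1) with limma 3.58.1 (R 4.3.3, moderated test with a trend) in 1 fit of the 3 groups, over genes with at least 1 CPM in at least 4 rats. Benjamini-Hochberg adjustment ran over all genes tested, and adjusted p-values under 0.05 were called. Fold changes are on the log2(CPM + 1) scale, which understates those of low genes. Intervals are 95% confidence intervals. Single genes had an exact two-sided permutation test over 70 assignments. The 22 other settings comprised no filter, a pseudocount of 0.1, a mean of at least 10, quantile normalization, median-of-ratios scaling, only the 2 groups compared, a replicate block, array quality weights, edgeR 4.0.16 and DESeq2 1.42.0 on whole reads, and leaving out each of the 12 rats. The fits were tested on simulated data, and the outcome is not reported here. Values in every rat are given for the called genes, at most 15 per comparison with the smallest adjusted p, and for a fixed set of matrix genes, and ratios within a rat were added after values were seen. Of the context lists at most 5 called genes per comparison could be named. The members and lists were chosen with earlier results of these data known. Promoters came from RefSeq's table of GRCr8, a build other than that of the counts, and were matched by symbol. Some results of single genes are not reported here.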

Additional observations from a re-analysis of the deposited data

Results flagged for a closer look

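In 4 of the 111 groups of 4 values examined (37 genes in 3 groups), the lowest or highest rat stood apart by its gap to the nearest rat over the group's range (Dixon's 95% limit). Chance alone gives about 1 in 20 such groups, or 5.55 of 111. Col1a1 was 54.3 CPM in ZL rat 3, against 83.1 to 88.5 in the other ZL rats (ratio 0.842). Fbn1 was 45.3 CPM in ZF-SGLT2i rat 2, where the other treated rats had 36.4 to 37.4 (ratio 0.896). Lamb2 was 260 CPM in ZF rat 4, against 315 to 322 in the other ZF rats (ratio 0.883). Timp3 was 268 CPM in ZF-SGLT2i rat 6, where the other treated rats had 300 to 304 (ratio 0.897).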

How the results depend on the processing

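For a set of 37 matrix genes, without Col27a1, Nid2 and Mmp24 among others, 75 differences had an unadjusted p under 0.05. None of these turned direction in any of the 22 alternatives (0 of 75), and of the 48 called, 22 were called in every alternative that tested them. The differences were picked by their p in these same rats, so a turn of direction was unlikely from the outset. Other values moved as follows, and the cause was not tested except where fewer rats entered. In ZF against ZL, fitting only the 2 groups compared called 1621 genes and 11 matrix genes, in place of 2185 and 17. In ZF-SGLT2i against ZF, array quality weights called 689 genes and 19 matrix genes, and DESeq2 called 641 and 22, in place of 366 and 12. There the median log2 fold change of matrix genes was −0.38 with edgeR and −0.38 with DESeq2, in place of −0.26. Leaving out 1 rat gave 1389 to 2453 genes called and 10 to 21 matrix genes in ZF against ZL, and 176 to 570 and 4 to 24 in ZF-SGLT2i against ZF. In ZF-SGLT2i against ZL it gave 2241 to 3302 genes called and 14 to 27 matrix genes.

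With a replicate block, genes called numbered 807, 223 and 1502 in the 3 comparisons, in place of 2185, 366 and 3184, and matrix genes called 15, 15 and 17. Numbers 1, 5 and 6 were each held by a single rat, namely ZL rat 1, ZF rat 5 and ZF-SGLT2i rat 6. The block fits such a rat exactly, so these rats did not inform the comparisons. Changes in calls therefore mix the block with the loss of these rats, and their parts were not tested. The block ended 16 matrix gene calls (adjusted p = 0.0671 to 0.182) and added 12. It ended those of Col4a4, Lama1 (adjusted p = 0.141), Lama4, Lamc1 and Mmp14 (adjusted p = 0.0795) in ZF against ZL, of Col4a4, Lama4 and Timp3 in ZF-SGLT2i against ZF, and of Col16a1, Col3a1, Eln, Lamb2, Loxl4, Mmp20 (adjusted p = 0.0788), Mmp24 and Nid2 in ZF-SGLT2i against ZL. The numbers did not pair the rats: of 9 pairs with the same number, 2 had deviations correlated above 0.1 (range −0.376 to 0.253), and pairs with different numbers ranged from −0.402 to 0.455. Genes on few reads, such as Adamts4, Mmp9 and Timp1, are limited by depth.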
